A study of Mus musculus with 12 samples.

Results

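Control XY gonads were compared with control XX gonads of the mouse at embryonic day 11.5, in the somatic cells in which testis and ovary development begin to diverge. The comparison held 6 of the 12 arrays of the series, 3 of control males and 3 of control females, each with the RNA of a single embryo. All 6 control embryos were heterozygous for a mutant allele of Jmjd1a, whose current symbol is Kdm3a and which encodes a histone demethylase, so the comparison holds no wild-type embryo. The other 6 arrays, used here only to set a sex difference beside another, were of 3 male and 3 female embryos homozygous for that allele. All embryos carried an Nr5a1/CD271 transgene, in which Nr5a1, a gene of the gonadal somatic lineage, drives a cell surface tag. Gonads and mesonephroi, the embryonic kidneys attached to them, were dissociated with trypsin, and cells bearing the tag were pulled out with magnetic beads. The samples are thus those cells in which the transgene was active and not the whole gonad. They were measured in bulk, so more cells of a type and more RNA per cell cannot be told apart. The labels name no litters.

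In the bipotential gonad the Y-linked gene Sry switches on the transcription factor gene Sox9 in supporting cell precursors, which become Sertoli cells. Sox9 and the growth factor Fgf9 then maintain each other, and Sertoli cells come to secrete Amh, Dhh and prostaglandin. Without Sry, signalling by Rspo1, Wnt4 and beta-catenin, with the activin antagonist follistatin, leads to the ovary. Sry is active for a short time around this stage, so the gonad is close to the point where the programmes part.

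Levels are on a log2 scale on which 0 is the 75th percentile of the processed signal on that array. A difference is the mean level in males minus that in females, with the standard error (SE) of a limma fit over the 12 arrays. A feature, one probe standing for each gene, was tested if the scanner software marked it well above background on every array of either control sex. It was called where its p-value, adjusted over all 18443 features tested, was under 0.05. The 12385 autosomal features are described here. There are 3 embryos per group throughout, and this number limits the precision of every value.

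Genes that mark sex and tissue matched the labels. Xist, the RNA of the inactive X chromosome, was lower in the males by at least 769-fold, and the Y-linked gene Ddx3y higher by at least 74.0-fold. Nr5a1, Wt1, Gata4 and Lhx9, transcription factor genes of the early gonad, were well above background on all 6 arrays, with differences of -0.12, -0.24, 0.021 and -0.25 that were not called. Male arrays were the dimmer ones, with overlap: their 75th percentiles ran from 142.9 to 220.7, against 188.7 to 280.0 for females. Control males lay on slide 1, control females 1 and 2 on slide 2 and control female 3 on slide 3. Slide and sex thus cannot be told apart within the controls. Control female 3 stood apart from the other 5 control arrays. It was the highest of the 6 for 35.2% of autosomal features and the lowest for 36.6%. It was also the only control array on its slide, so this embryo and its slide cannot be told apart. Several lists whose values moved without control female 3, but not all, are given both ways.

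Few autosomal genes separated the sexes. Of 12385 autosomal features 13 were called (0.105%), 8 higher in males (0.0646%) and 5 lower (0.0404%), and the median difference over all of them was 0.0082. An unadjusted p under 0.05 was reached by 763 higher features (6.16%) and 558 lower ones (4.51%). The 3 male and 3 female levels did not overlap in 1344 higher features (10.9%) and 785 lower ones (6.34%). Differences over 1 or under -1, a 2-fold change, occurred in 158 features (1.28%). The count of called features was 8 without control female 1, 5 without control female 2 and 6 without control female 3. It was 5 without control male 1, 7 without control male 2 and 11 without control male 3. With slide as a block, which links the sexes through the mutant arrays, 7 were called, and of the 13 only Rnase1 and Fgf9 were among them. Fitting only the 6 control arrays gave 3, quantile normalization 16 and array weights, which give less weight to more variable arrays, 134.

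Sry set the stage for the comparison. Its levels were -2.94, -3.40 and -3.80 in control males and -6.92, -7.35 and -7.45 in control females. It was well above background in the 3 males and in none of the females, a difference of at least 2.90-fold (limma adjusted p = 3.863e-06). Sry is Y-linked and is given only because the comparison turns on it.

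Sox9, the transcription factor that directs Sertoli cell differentiation, rose in males. Its levels were 0.25, 0.60 and 0.36 in control males against -0.80, -1.04 and -1.05 in control females. The groups lay more than 1 log2 unit apart and did not overlap, with a difference of 1.37 ± 0.18 (2.59-fold, limma adjusted p = 0.0129). A second Sox9 probe gave 1.77 ± 0.16 (limma adjusted p = 0.000558 with each probe tested separately). The remaining probe gave 1.73 ± 0.35, short of the threshold (limma adjusted p = 0.111). The call of the representative probe was lost when control male 2, control female 2 or control female 3 was left out, at adjusted p-values up to 0.0886. With slide as a block the difference was 1.38 (limma adjusted p = 0.609). Adding array brightness as a covariate gave 1.45 (limma adjusted p = 0.0562).

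Fgf9, the fibroblast growth factor that sustains Sox9 in the XY gonad, rose by a similar amount. Its levels were -0.88, -0.68 and -0.84 in control males and -2.29, -1.97 and -2.23 in control females. Every male lay more than 1 log2 unit above every female, with a difference of 1.36 ± 0.16 (2.58-fold, limma adjusted p = 0.00473). The call held under each of the 17 alternatives tried, among them each array left out, slide as a block and the brightness covariate, with differences from 0.79 to 1.82. A second, dimmer Fgf9 probe went the same way at 1.08 ± 0.21 without passing (limma adjusted p = 0.0979).

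The largest autosomal difference was that of Rnase1, a secreted ribonuclease of the pancreatic type. Its levels were 0.69, 0.53 and -0.36 in control males and -3.19, -3.49 and -3.60 in control females. The male levels were 13.1-fold higher on average, a difference of 3.71 ± 0.35 (limma adjusted p = 0.000725), and the call held under all 17 alternatives. Over these the difference ran from 1.94, with normexp background correction, to 4.83, with slide as a block. A second Rnase1 probe, well above background in no control female, gave at least 2.24-fold; it passed the filter only through the males.

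The other called genes that were higher in males belonged to several families. Gstm6, a glutathione S-transferase of the mu class and a member of the list of early Sertoli genes, stood at 0.014, 0.17 and -0.20 in males and at -1.43, -1.05 and -1.42 in females. Its difference was 1.30 ± 0.14 (2.46-fold, limma adjusted p = 0.00294), and no single array ended the call. Jaml, an adhesion molecule of the junctional adhesion family, stood at -0.092, 0.74 and -0.45 in males and at -1.39, -1.81 and -2.29 in females. Its difference was 1.90 ± 0.31 (3.72-fold, limma adjusted p = 0.0425), and a second probe gave 2.12 ± 0.34. Male 2 was the highest array and female 3 the lowest for this gene. Cidea, a lipid droplet protein best known from brown fat, stood at -1.46, -2.15 and -2.49 in males and at -3.81, -3.87 and -3.60 in females, a difference of 1.73 ± 0.27 (limma adjusted p = 0.0376). Tent5b, a noncanonical poly(A) polymerase, differed by 1.36 ± 0.22 (limma adjusted p = 0.0378). Its levels ran from -1.06 to -0.84 in males and from -2.56 to -1.92 in females. The 8th gene, 4933432I09Rik, is known only by a clone name. Its levels were -3.49, -3.44 and -3.59 in males and -4.3, -4.56 and -4.71 in females. The lowest levels well above background on the female arrays were -4.59, -5.03 and -5.13, so it was dim there. It differed by 1.02 ± 0.12 (limma adjusted p = 0.00517), and no single array ended its call. The call was lost with normexp background correction, with only the 6 control arrays and with slide as a block. Of the 6 fits that each left out an array, the calls of Jaml and Cidea held only in that without control male 3, and that of Tent5b only in that without control female 3, with limma adjusted p-values up to 0.167.

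The 5 called genes that were lower in males, and so higher in XX cells, held none of the members of the ovary list. Lalba, which encodes the milk protein alpha-lactalbumin, stood at -3.86, -3.77 and -3.05 in males and at -1.94, -1.62 and -0.93 in females. It fell by 2.06 ± 0.30 from females to males (4.18-fold, limma adjusted p = 0.0219). Trim55, a ubiquitin ligase of muscle, stood at -2.61, -1.93 and -2.61 in males and at -0.51, -0.46 and -0.82 in females. Each female lay more than 1 log2 unit above each male, and the difference was -1.79 ± 0.25 (limma adjusted p = 0.0157). Adcyap1r1, the receptor of the peptide PACAP, stood at 0.20, -0.010 and -0.19 in males and at 1.37, 1.04 and 1.26 in females, a difference of -1.22 ± 0.18 (limma adjusted p = 0.0268). The second Adcyap1r1 probe gave 0.032 ± 0.37, so the probes of this gene disagreed. Cpne5, a calcium-dependent membrane-binding protein of the copine family, differed by -0.90 ± 0.14 (limma adjusted p = 0.0378). Slc7a11, the cystine and glutamate exchanger, differed by -0.79 ± 0.13 (limma adjusted p = 0.0461), with females within a narrow range of -1.92 to -1.84. With normexp background correction its difference was -0.092, and with slide as a block -0.48, and the call was lost in 8 of the 11 alternatives that left out no array. The calls of Cpne5, Slc7a11 and Adcyap1r1 were lost without any single one of the 6 arrays. That of Lalba was lost without control female 2, control female 3, control male 1 or control male 2, and that of Trim55 without control female 1, control female 2, control male 1 or control male 3.

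**Figure D1:**
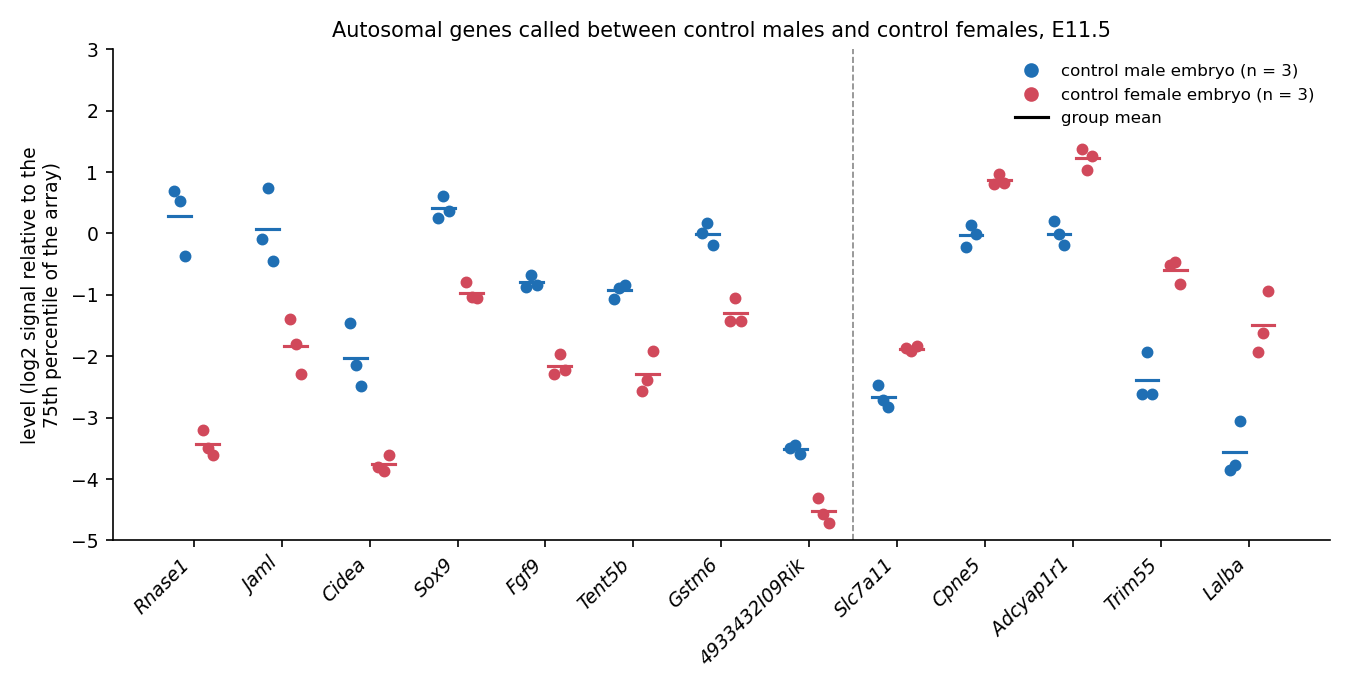
Levels of the 13 called autosomal genes on each control array (y axis, log2 signal relative to the 75th percentile of the array), control males in blue and control females in red, 3 embryos each, with bars at the group means. The dashed line parts the 8 genes higher in males from the 5 lower ones; in each gene the groups do not overlap, and Rnase1 has the widest gap.

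Among the called genes, promoter sequences of the gene with the largest rise, of the testis growth factor and of the gene with the largest fall are shown so that letters can be set beside these differences. Each runs 5′ to 3′ on the strand of the gene over the 250 bases before its start, from RefSeq on GRCm38.p6. Capitals mark matches, on either strand, to short core letters of factor families that act in the gonad.
Rnase1, chr14:51146768-51147017, minus strand: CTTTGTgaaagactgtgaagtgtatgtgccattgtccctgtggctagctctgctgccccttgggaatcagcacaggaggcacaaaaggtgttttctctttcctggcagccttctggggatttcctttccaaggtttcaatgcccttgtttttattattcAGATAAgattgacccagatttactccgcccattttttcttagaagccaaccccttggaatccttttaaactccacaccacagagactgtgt
Fgf9, chr14:58072436-58072685, plus strand: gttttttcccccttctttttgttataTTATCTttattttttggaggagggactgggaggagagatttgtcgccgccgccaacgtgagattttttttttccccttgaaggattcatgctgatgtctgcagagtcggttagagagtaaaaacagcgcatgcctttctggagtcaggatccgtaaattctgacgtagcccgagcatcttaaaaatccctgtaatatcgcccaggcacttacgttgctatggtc
Lalba, chr15:98482684-98482933, minus strand: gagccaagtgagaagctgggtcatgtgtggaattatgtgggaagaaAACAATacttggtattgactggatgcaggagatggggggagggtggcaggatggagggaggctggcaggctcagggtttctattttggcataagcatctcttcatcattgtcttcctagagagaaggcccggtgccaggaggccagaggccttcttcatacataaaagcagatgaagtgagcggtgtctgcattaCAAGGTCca
The letters searched were AACAAT and ACAAAG for SOX proteins, CAAGGTC for NR5A1, AGATAA for GATA proteins and CTTTGAT for TCF and LEF proteins. AACAAT and ACAAAG share the letters ACAA, and CTTTGT, the reverse complement of ACAAAG, shares CTTTG with CTTTGAT. The Rnase1 window held ACAAAG on the strand opposite the gene 250 bases before the start and AGATAA 91 bases before it. The Fgf9 window held AGATAA on the strand opposite the gene 224 bases before the start. The Lalba window held AACAAT 204 bases and CAAGGTC 9 bases before the start. Of the 8 genes higher in males 6 had promoter entries, with 9 windows, of which 2 held ACAAAG (22.2%), 2 held AGATAA and 0 held the other 3 motifs. Among all 32851 windows of the table ACAAAG was in 16.5% and AGATAA in 9.99%. In wider sets taken at an unadjusted p under 0.01, ACAAAG was in 18.2% of 143 windows of genes higher in males and in 15.3% of 124 windows of genes lower in males. AACAAT was in 4.9% and 4.03% of these windows, against 9.42% of all windows, and AGATAA in 8.39% and 5.65%. These shares describe letters in short windows and carry no test.

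The other members of the testis determination list were split. Of its 12 autosomal genes on the array 11 were measured, 6 higher and 5 lower in males, with a median difference of 0.036 against 0.0082 over all autosomal features, of which 51.3% were higher and 48.7% lower. Sox9 and Fgf9 were called, 2 of 11, where 0.105% of all autosomal features were. An unadjusted p under 0.05 was reached by 4 higher members and 2 lower ones. The list was chosen with earlier results of these data known, so its counts are a description. The median was -0.20 with slide as a block, 0.36 without control male 2, -0.023 without control male 1 and -0.070 without control male 3, so its sign depended on the setting.

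Secreted signals of early Sertoli cells were high in males but were not called. Dhh, the hedgehog ligand of Sertoli cells, stood at -1.32, -0.22 and -1.18 in males and at -2.49, -2.26 and -2.02 in females, a difference of 1.35 ± 0.27 (limma adjusted p = 0.0976). Ptgds, the prostaglandin D synthase that takes part in activating Sox9, stood at -1.10, -0.16 and -1.0 in males and at -2.00, -2.10 and -2.46 in females, a difference of 1.43 ± 0.41 (limma adjusted p = 0.338). Male 2 was the highest array for both genes, and neither overlapped between the sexes. Sox10, a relative of Sox9 of the same SOX subgroup, gave 0.80 ± 0.53. Sox8, the other member of that subgroup, was below the filter.

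Genes upstream of Sry overlapped between the sexes. Gadd45g, Map3k4 and Map2k6, parts of a kinase pathway that permits Sry expression, gave -0.17 ± 0.20, -0.15 ± 0.22 and -0.044 ± 0.14. A second Map3k4 probe gave 0.22 ± 0.18, also with overlap. Dmrt1, which later keeps the testis fate, gave 0.036 ± 0.33 and was well above background in 2 of the 3 males. The receptor Fgfr2, through which Fgf9 signals, was lower in males at -0.40 ± 0.14, with levels of -0.69, -0.71 and -0.52 in males and -0.47, -0.22 and -0.019 in females (limma adjusted p = 0.422). Its 2 other probes gave -0.35 and -0.30. The growth factor Pdgfa gave -0.40 ± 0.12 (limma adjusted p = 0.338). For the representative probes of both genes no male level reached that of any female. A second Pdgfa probe gave -0.16 ± 0.13, with overlap between the sexes.

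The list of early Sertoli effectors leaned towards males. Of 26 autosomal genes on the array 21 were measured, 16 higher and 5 lower, with a median of 0.30, and it kept its sign without each control array in turn (0.23 to 0.37). Gstm6 was called, 1 of 21, where 0.105% of all autosomal features were. An unadjusted p under 0.05 was reached by 7 higher members and 1 lower one, where 6.16% and 4.51% of autosomal features did so. In 8 members all males lay above all females, where 10.9% of autosomal features did so. In 2 members all males lay below all females, against 6.34% of autosomal features. The summed signal of the list, relative to the 75th percentile, was 43.3, 45.3 and 36.3 in males and 29.6, 31.2 and 32.3 in females.

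Besides Gstm6, 5 members differed by more than 1. Tesc, which encodes the calcium-binding protein tescalcin, stood at -0.16, 0.36 and -0.43 in males and at -1.65, -1.54 and -1.59 in females, a difference of 1.52 ± 0.27 (limma adjusted p = 0.0751). Mmd2, of the progestin and adipoQ receptor family, stood at -1.53, -1.35 and -1.48 in males and at -3.68, -2.71 and -2.91 in females, a difference of 1.65 ± 0.30 (limma adjusted p = 0.0810). Mro, or maestro, gave 1.47 ± 0.29 (limma adjusted p = 0.0982), with males from -1.26 to -0.63 and females from -2.44 to -2.23. Aard gave 1.25 ± 0.24 (limma adjusted p = 0.0919). Cst9, a cystatin known as testatin, stood at 2.73, 3.28 and 2.53 in males and at 1.68, 1.95 and 1.28 in females, a difference of 1.21 ± 0.27 (limma adjusted p = 0.161). None of these 5 passed the threshold, and none overlapped between the sexes. Tesc, Mmd2 and Aard passed with normexp background correction (limma adjusted p = 0.0316, 0.00918 and 0.0224), and all 5 passed with array weights (limma adjusted p from 0.0143 to 0.0318). None of the 5 passed with slide as a block or with only the 6 control arrays.

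Further Sertoli members showed smaller differences. Etv5, an ETS factor that responds to fibroblast growth factors, gave 0.78 ± 0.23 (limma adjusted p = 0.370), and all males lay above all females by a small margin. Defb19, a beta-defensin of Sertoli cells, gave 0.44 ± 0.20, and Shbg, the sex hormone-binding globulin, 0.34 ± 0.16. Cyp26b1, which breaks down retinoic acid in the fetal testis, gave 0.31 ± 0.25, with control female 3 at 2.37 above all males and the other females below them. Tmem184a, Cst8 and Nedd9 gave 0.30, 0.30 and 0.28, and Col9a1, Vnn1, Inhbb, Serpine2 and Ntf3 lay between -0.15 and 0.086. Jag1, a Notch ligand, was lower in males at -0.56 ± 0.22, Sostdc1 gave -0.56 ± 0.55 and Nrcam -0.34 ± 0.20.

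Amh, the anti-Mullerian hormone and the classical product of Sertoli cells, was well above background on none of the 6 control arrays and had no measured level. The same held for Col9a3 and Erbb4. Cbln4 was well above background in 1 male and 1 female, and Gdnf in 1 female. Fgf13 is X-linked and was not among the autosomal genes.

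**Figure D2:**
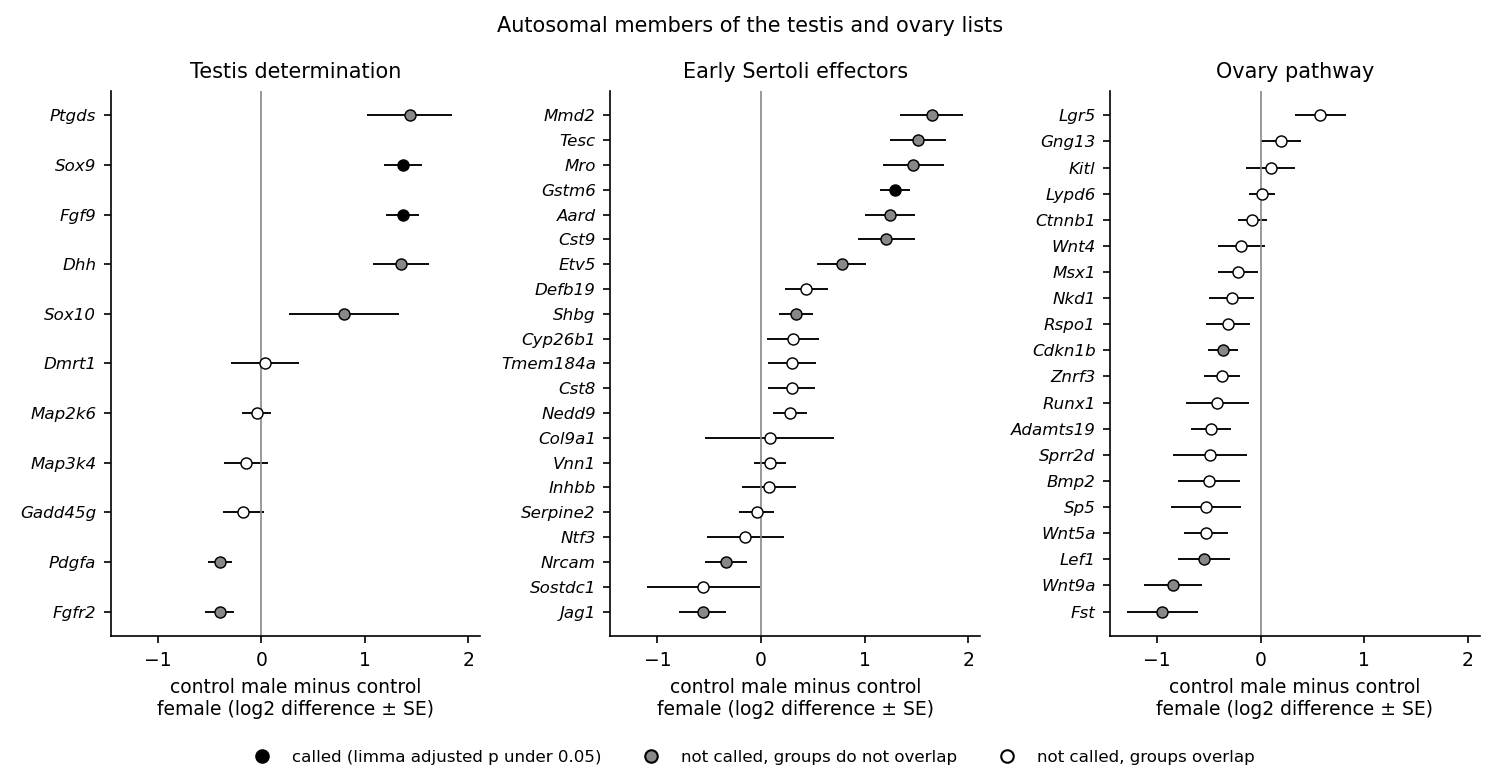
Differences between control males and control females (x axis, log2, with the SE of the limma fit) for the measured autosomal members of the testis determination, early Sertoli and ovary lists, 3 embryos per sex. Black points are called, grey points are not called but their groups do not overlap, and open points overlap; the called members are Sox9, Fgf9 and Gstm6, and the ovary list has none.

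The ovary list leaned the other way, without a called member. Of 24 autosomal genes on the array 20 were measured, 4 higher and 16 lower in males, with a median of -0.37. An unadjusted p under 0.05 was reached by 5 lower members and 1 higher one, where 4.51% and 6.16% of autosomal features did so. In 4 members all males lay below all females, against 6.34% of autosomal features. Control female 3 was the highest of the 6 arrays for 15 of the 20 members, against 35.2% of all autosomal features. Without it the median was -0.17, with 5 members higher and 15 lower. In that fit 1 lower and 1 higher member reached an unadjusted p under 0.05. Of all 12385 autosomal features 322 lower and 376 higher ones did so. The median was -0.046 with slide as a block and -0.14 with array brightness as a covariate.

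Follistatin and a Wnt ligand had the widest gaps. Fst, which encodes the activin-binding protein follistatin, stood at 0.34, -0.049 and -0.19 in males and at 0.83, 1.19 and 0.93 in females. All females lay above all males, and the difference was -0.95 ± 0.34 (limma adjusted p = 0.422), with -0.98 without control female 3 and 0.18 with slide as a block. Wnt9a stood at -0.89, -1.14 and -0.83 in males and at -0.17, -0.64 and 0.50 in females, a difference of -0.85 ± 0.28 (limma adjusted p = 0.405) and of -0.55 without control female 3. Cdkn1b, the cell cycle inhibitor p27, gave -0.36 ± 0.14 with females between 1.82 and 1.88, and Lef1, a transcription factor of the Wnt pathway, -0.55 ± 0.25.

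The core signals of the ovary pathway did not separate the sexes. Rspo1, the secreted activator of Wnt signalling, stood at 4.37, 4.10 and 4.32 in males and at 4.31, 4.397 and 5.03 in females. The sexes overlapped, and the difference was -0.32 ± 0.21. Wnt4 stood at 0.88, 0.71 and 0.95 in males and at 0.84, 0.86 and 1.42 in females, a difference of -0.19 ± 0.23, with control female 3 alone above all males. Ctnnb1, which encodes beta-catenin, gave -0.079 ± 0.14. Among targets and modifiers of the pathway Wnt5a gave -0.53 ± 0.21, Sp5 -0.53 ± 0.34, Bmp2 -0.50 ± 0.30, Znrf3 -0.37 ± 0.17, Nkd1 -0.28 ± 0.22 and Msx1 -0.22 ± 0.19, and the groups overlapped in each. Runx1, a transcription factor of the early ovary, gave -0.42 ± 0.30, and Adamts19 and Sprr2d gave -0.48 and -0.49. Lgr5, a receptor of R-spondins, was higher in males at 0.58 ± 0.25, and Gng13, Kitl and Lypd6 lay between 0.011 and 0.20. Foxl2, the transcription factor that maintains granulosa cells, was well above background on none of the 6 arrays, and neither were Axin2, Irx3 and Irx5.

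The signalling families around these programmes had no called member other than Fgf9. The Wnt list had 34 measured autosomal members, 8 higher and 26 lower in males, with a median of -0.16. Control female 3 was the highest array for 23 of the 34, and without it 14 were higher, 20 lower and the median was -0.057. Its smallest p-values were those of the transcription factor Tcf7l2 at -0.62 ± 0.19, of Wnt5a and of the secreted inhibitor Wif1 at 0.55 ± 0.22. In the list of fibroblast growth factor signalling 8 of 16 members were higher and 8 lower (median -0.015), with Etv5 and Fgfr2 next to Fgf9. Without control female 3, the highest array for 8 of them, 11 were higher and 5 lower (median 0.19). In the list of activin, transforming growth factor beta and bone morphogenetic protein signals 7 were higher and 16 lower (median -0.15, and -0.083 without control female 3), with Id1, a target of bone morphogenetic proteins, at -0.84 ± 0.26 and Tgfb2 at -0.44 ± 0.19. In the hedgehog and Notch list 4 of 13 were higher (median -0.30), and control female 3 was the highest array for 8. Without it 6 were higher and the median was -0.085. The ligand Dhh was among the higher genes, while Gli1, a target of hedgehog signalling at background in 2 of the males, stood at -0.67 ± 0.30 and the receptor Ptch1 at -0.30 ± 0.16.

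Genes of the bipotential gonad differed little. Of 17 measured members 4 were higher and 13 lower, with a median of -0.12. Control female 3 was the highest array for 11 of them, and without it 7 were higher and 10 lower, with a median of -0.025. Tcf21, a transcription factor of the gonadal stroma, stood at 3.16, 3.11 and 2.97 in males and at 2.71, 2.62 and 2.62 in females, a difference of 0.43 ± 0.099 (limma adjusted p = 0.173). Zfpm2, the cofactor of Gata4, gave 0.38 ± 0.16, and Cited2, a coregulator of Wt1 and Nr5a1, -0.44 ± 0.20. Steroidogenic genes, which the adrenal precursors next to the gonad also express, had a median of -0.013 over 12 members, 5 higher and 7 lower. Without control female 3 the median was 0.073, with 9 higher and 3 lower. Star, the cholesterol transporter, gave 0.47 ± 0.15 and Hsd3b1 0.67 ± 0.22, while Cyp17a1 gave -0.74 ± 0.28. Cell cycle genes were split, 10 higher and 11 lower, with a median of -0.0045 (-0.027 without control female 3).

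Markers of other cells and of handling were measured beside these results. Immediate early and heat shock genes respond to the dissociation of tissue. Their summed signal was 86.3 to 147.6 in males and 171.5 to 225.7 in females, with no overlap. Of the 23 members 21 were lower in males, the median was -0.78 and none was called. Klf4 stood at 2.28, 2.69 and 2.57 in males and at 4.33, 4.09 and 3.67 in females, a difference of -1.52 ± 0.47 (limma adjusted p = 0.387), Klf2 gave -0.67 ± 0.22 and Dusp1 -1.51 ± 0.52. Control male 1 was the lowest array for 21 of the 23, and without it the median was -0.48. Without control female 3 the median was -0.91, and without control male 3 it was -0.93. With slide as a block the median was -1.62. The part of this response in the sex differences above was not tested.

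Genes of mesonephric, blood and vessel cells were measured in both sexes, and the erythroid signal was high on some arrays. Of 11 measured mesonephric epithelial genes 8 were lower in males, 6 of them with no overlap between the sexes. Over all autosomal features 6.34% were lower in this way. The median of the list was -0.50, and -0.58 without control female 3. Cdh1, an epithelial cadherin measured above background in all females but in 1 male only, gave a fitted difference of -1.20 ± 0.34 that rests partly on arrays at background. Gata3 gave -0.64 ± 0.22 and Spp1 1.17 ± 0.37. The summed signal of the list was 9.5 to 12.5 in males and 10.1 to 13.2 in females, and 2 of its 14 genes were well above background on no control array. The median level of its measured genes did not overlap. It was -2.88, -2.77 and -2.85 in males and -1.70, -1.78 and -1.69 in females. The summed signal of erythroid genes ran from 33.7 to 252.1 in males and from 57.5 to 864.7 in females, and control female 1 was the highest array for all 6 measured members. Endothelial genes summed to 12.7 to 18.3 in males and 13.7 to 18.7 in females, with Sox18 at -0.82 ± 0.37. Mesenchymal genes summed to 124.2 to 171.9 and 159.6 to 202.1, with Nr2f2 at -0.32 ± 0.15.

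The gonad holds germ cells at this stage, which the tag should leave behind. Of 12 germ cell genes on the array 6 were well above background on none of the control arrays, and 3 were measured. Ddx4, an RNA helicase of germ cells, gave 1.01 ± 0.34 (limma adjusted p = 0.405), Dppa3 ranged from -7.24 to -1.59 within the females, and Dnd1 gave -0.056 ± 0.15. The summed signal was 1.05 to 1.14 in males and 0.638 to 1.27 in females. Macrophage genes summed to 0.662 to 2.70 and 0.713 to 2.24, and neural genes to 1.30 to 1.47 and 1.15 to 2.01, with Isl1 at -1.45 ± 0.69. The coelomic epithelium, the surface layer from which Sertoli precursors arise, had 9 measured genes and a median of -0.066 (-0.00083 without control female 3). The lists of these other cells overlapped between the sexes in their sums, but the mesonephric list did not in its median level. Lower in males were 9 of 11 endothelial, 6 of 6 erythroid, 6 of 7 macrophage and 10 of 14 mesenchymal genes. Their medians were -0.26, -1.07, -0.22 and -0.17, while 48.7% of all autosomal features were lower. Neural genes had 3 of 6 lower and germ cell genes 1 of 3. The erythroid median was 0.069 without control female 1, and the macrophage median 0.29 without control male 1. The part of these other cells in the called differences was not tested.

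**Figure D3:**
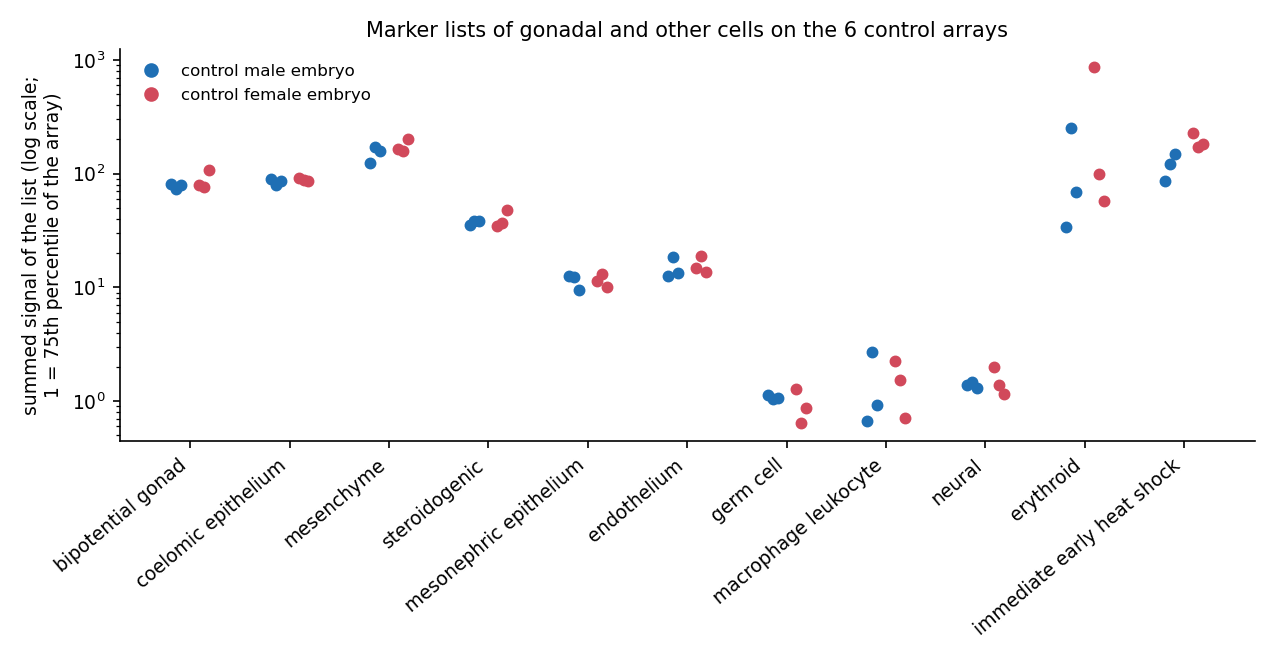
Summed signal of the autosomal genes of each marker list on the 6 control arrays (y axis, log scale, relative to the 75th percentile of the array), control males in blue and control females in red. The sums of the immediate early and heat shock list do not overlap between the sexes, those of the other lists shown do, and the erythroid sum spans 33.7 to 864.7.

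Genes detected in a single sex were mostly detected in females. One autosomal feature, Rasgrf2, a guanine nucleotide exchange factor, was well above background in 3 males and 0 females, at least 2.07-fold higher. The reverse held for 45 features, and 11747 of the 12385 were well above background on all 6 arrays. The male arrays were also the dimmer ones, and the part of brightness in this count was not tested.

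The sex difference was also taken in the homozygous mutants. The control difference of the 13 genes holds no mutant array, but their calls used a spread estimated over all 12 arrays. Fitting only the 6 control arrays called 3 genes. No array is in both comparisons, although the spread of a feature is estimated once for both. Mutant males lay on slides 1 and 2 and mutant females on slide 3, so the mutant sexes shared no slide either. Slide and sex cannot be told apart within the mutants, and their layout over the slides differed from that of the controls. Of the 13 called autosomal genes 11 had the same sign in mutants, 7 of the 8 higher and 4 of the 5 lower ones, and 12 had a smaller difference there. Since the 13 were selected for a large difference in controls, a smaller one elsewhere is in part given by the selection. Between mutants 6 of 12385 autosomal features were called (0.0484%), and 2 of the 13 were among them, 4933432I09Rik at 0.78 ± 0.12 (limma adjusted p = 0.0371) and Adcyap1r1 at -1.26 ± 0.18 (limma adjusted p = 0.0296).

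The testis genes among the 13 did not separate mutant males from mutant females. Sox9 stood at -0.68, -1.03 and -0.23 in mutant males and at -0.51, -0.54 and -0.62 in mutant females, a difference of -0.088 ± 0.18. Fgf9 stood at -2.26, -1.91 and -1.63 in mutant males and at -1.98, -2.14 and -2.09 in mutant females, a difference of 0.14 ± 0.16. In both genes the mutant groups overlapped, and mutant males of Fgf9 lay below all control males. Rnase1 stood at -4.05, -2.93 and -2.76 in mutant males and at -4.44, -3.98 and -3.88 in mutant females, a difference of 0.85 ± 0.35 against 3.71 in controls. Gstm6 gave 0.36 ± 0.14 in mutants and Jaml 0.36 ± 0.31. The median difference of the early Sertoli list was 0.295 in mutants against 0.299 in controls. That of the testis determination list was 0.040 against 0.036, and that of the ovary list -0.10 against -0.37. These medians were not tested.

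The difference between the sex differences was tested in the same fit, which holds no term for slide. It was 2.86 ± 0.49 for Rnase1, 1.46 ± 0.26 for Sox9, 1.23 ± 0.22 for Fgf9, 0.94 ± 0.20 for Gstm6 and -0.81 ± 0.19 for Slc7a11. None of the 12385 autosomal features passed after adjustment in limma (0%), and the lowest adjusted p among the 13 was 0.729, shared by Rnase1, Sox9 and Fgf9. An unadjusted p under 0.05 was reached by 428 of 12385 (3.46%) and by 10 of the 13, which were selected on the control side of the contrast. For Trim55 and Adcyap1r1 the difference of sex differences was -0.35 ± 0.35 and 0.032 ± 0.26.

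**Figure D4:**
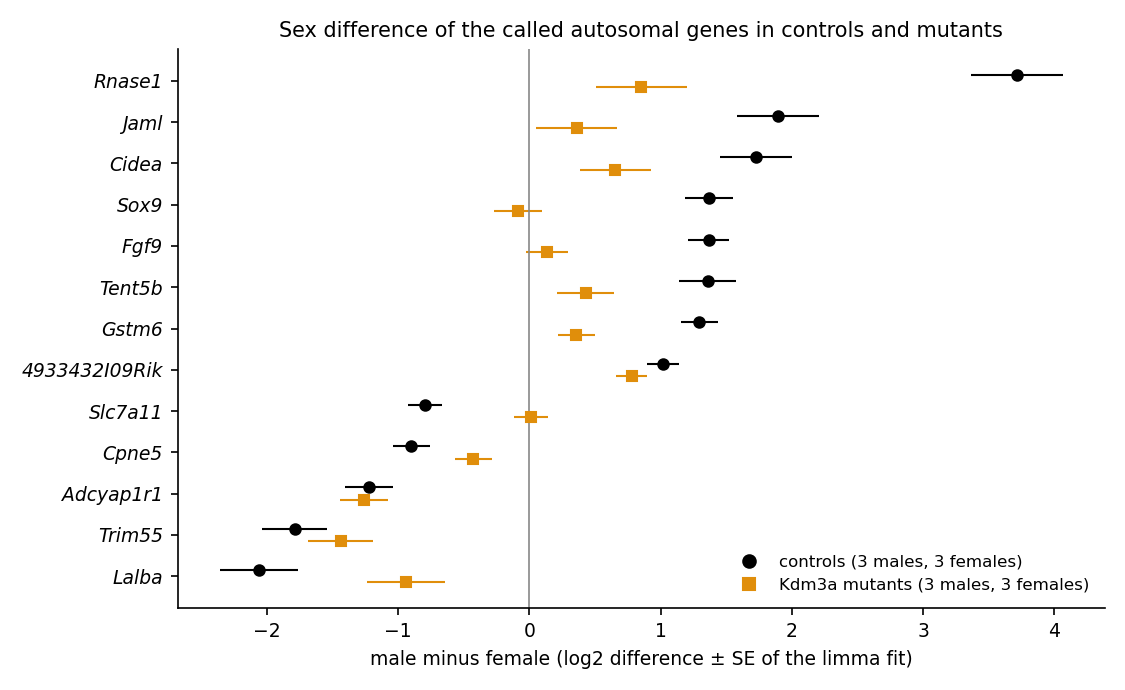
Male minus female difference (x axis, log2, with the SE of the limma fit) of the 13 called autosomal genes in controls (black circles) and in Kdm3a mutants (orange squares), 3 males and 3 females each. Sox9, Fgf9 and Slc7a11 lie within 0.14 of 0 in mutants, while Adcyap1r1 and 4933432I09Rik are called in both genotypes.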

How the data were processed

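Agilent one-colour arrays measured Cy3-labelled RNA, amplified linearly, of 12 single embryos. Per the file headers, Agilent Feature Extraction 10.5.1.1 produced the deposited intensity, a background-subtracted processed signal on an mm9 design, not scaled between arrays; the median spot signal and its local background are deposited as intensity too. The processed signal was put on the log2 scale, and from it was taken each array's 75th percentile over spots that are not controls. Of 41174 probes 27471 were named through RefSeq (GRCm38.p6), giving 18745 symbols; that table also gave the chromosome. Each gene was represented by its probe of highest mean. Of 18443 features tested, 12385 were autosomal, 445 X-linked, 6 Y-linked and 5607 had no assigned chromosome; the last are not described here. Features that lacked a value on at least 1 array (59) were fitted on the others.

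Means of the 4 groups were fitted in limma 3.58.1 (R 4.3.3) with moderated statistics (8 residual degrees of freedom) and Benjamini-Hochberg adjustment. With 3 against 3 embryos an exact permutation test of a single gene cannot go below 0.1, so the pooled fit was used. The p-values measure the spread between single-embryo arrays within the 4 groups. In control females and mutant males, whose arrays lay on different slides, this includes any spread between slides. The code was tested on simulated data. Where a gene was not well above background in a group, the fold is the brighter mean against the mean of, per array, the higher of its own level and the lowest level well above background.

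Members and the 19 gene lists were chosen with earlier results of these data known. Named were every called autosomal gene with a symbol, all measured members of the testis, Sertoli and ovary lists, the 3 smallest p-values of other lists, and checks of sex and tissue (some genes this rule names are not reported); clone names were to be left out, and 4933432I09Rik, Rasgrf2, Gata3 and Ptch1 were named after their values were seen. Alternatives were quantile normalization, normexp background correction (offset 50, on median signals, with local backgrounds marked as outliers set to the median of the array), other filters, every probe, only control arrays, array weights, replicate number or slide as a block, array brightness as a covariate (chosen after seeing the data) and leaving out each control array.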

Additional observations from a re-analysis of the deposited data

How the results depend on the processing

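Over the 17 alternatives, 1740 values of 103 named genes were recomputed: 1541 kept direction and side of the threshold, 101 lost a call, 17 gained one, and 81, all of genes not called, changed sign. Among these were Fst (0.18), Sp5 (0.17), Sostdc1 (0.13) and Sox18 (0.046) with slide as a block, and Gli1 (0.17), Cdh1 (0.067) and Wnt5a (0.025) with normexp. No called value changed sign. The 13 called autosomal features (8 higher, 5 lower) became 16 (8 higher, 8 lower, 50% higher against 61.5%) with quantile normalization and 13 (10 higher, 3 lower, 76.9%) with normexp. There were 11 (3 lower) with no filter on dim probes, 3 (3 higher, 0 lower) with only the 6 control arrays, and 134 (72 higher, 62 lower) with array weights. With slide as a block there were 7 (6 higher, 1 lower; 2 of the 13 among them), with slide as a random block 4 (4 higher, 0 lower), and with array brightness 11 (5 higher, 6 lower). Leaving out an array gave 5 to 11 called, 5 to 10 higher and 0 to 2 lower. The cause of these changes was not tested. The difference of sex differences had 0 called autosomal features under every alternative that holds mutant arrays. The 3 called members of the testis, Sertoli and ovary lists were 6 with normexp, 11 with array weights and 1 with slide as a block, and 2 to 3 with an array left out. The testis median of 0.036 was 0.28 with no filter, 0.38 where all 6 control arrays had to be well above background, -0.20 with slide as a block, and -0.070 to 0.36 with an array left out. The ovary median of -0.37 was -0.046 with slide as a block, -0.14 with array brightness, and -0.46 to -0.17 with an array left out. The immediate early median of -0.78 was -1.62 with slide as a block. Replicate numbers do not pair the samples: deviations of same-numbered male and female arrays correlated at 0.256, 0.0741 and 0.455, and not every array correlated best with its own number. With the replicate block 8 were called (6 higher, 2 lower), 5 of them among the 13.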

Other observations

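Outside the lists, a few autosomal genes had large differences that did not pass the threshold; they were chosen after their values were seen. Cdk5rap1, which modifies transfer RNA, stood at 0.29, -0.46 and 0.48 in control males and at -2.03, -1.19 and -2.08 in control females, a difference of 1.87 ± 0.32 (limma adjusted p = 0.0502), and of 0.057 in mutants. Gatm, the first enzyme of creatine synthesis, gave 1.49 ± 0.36, and Cga, the common subunit of the glycoprotein hormones, 1.19 ± 0.27, with males from 1.55 to 2.27 and females from 0.44 to 0.99. Lower in males were Pex14, a peroxisome protein, at -1.44 ± 0.30 (limma adjusted p = 0.113), and Aqp3, a water and glycerol channel, at -1.27 ± 0.31, with females from -1.68 to -1.03 and males from -2.74 to -2.48. All 5 were taken from features with no overlap between the sexes, so their lack of overlap was set by the choice. Of all autosomal features 10.9% were higher in males in this way and 6.34% lower.

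The limits of the comparison are its 3 embryos per sex, the heterozygous genotype of all controls, the lack of a slide that holds both control sexes, the dimmer male arrays, and control female 3, whose levels were the highest or lowest of the 6 more often than those of any other control array. Amh and Foxl2 were not well above background on any control array.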
